A study of Mus musculus with 4 samples.

Results

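The AP-1 and EGR immediate early genes are the FOS, JUN and EGR transcription factor genes that cells switch on first after a stimulus. They were chosen by name, as 10 gene symbols looked up in the platform annotation: Fos, Fosb, Fosl1, Fosl2, Jun, Junb, Jund, Egr1, Egr2 and Egr3. Of the 10, 9 had a probe that the annotation assigns to that gene alone, out of 22180 genes measured. The only probe of Fosl1 was shared with Ccdc85b and is described apart. RNA came from B16-OVA, a mouse melanoma line carrying an ovalbumin transgene, and was hybridised to 4 Affymetrix arrays. The 2 mock arrays came from mock transfected cells. The 2 AT90ES arrays came from cells transfected for 6 hours, by the cationic lipid Lipofectamine 2000, with AT90ES, which the labels tie to a double-stranded DNA 90 bases long. The labels give a single treatment text for every array and do not say what mock cells received, so effects of the DNA and of transfection cannot be told apart. All groups share the cell line, the medium and the time point, and the labels do not say that replicates were separate cultures, so p-values measure only the spread between these arrays.

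FOS proteins cannot pair with themselves and bind DNA as dimers with JUN proteins; the pair is the transcription factor AP-1. EGR proteins bind GC-rich sites through zinc fingers. Growth factors, stress and calcium act through MAP kinases, serum response factor (SRF) and its ETS partners, and CREB on promoters that need no new protein, and the first wave of RNA is short-lived. In melanoma cells AP-1 is driven by RAS, RAF and MAP kinase signalling.

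The promoters of the 4 members with the smallest p-values and of the member with the largest are shown. They were chosen because most members stood higher in AT90ES cells and some known inputs act close to the start. Each run is the 250 bases before the gene start in RefSeq (GRCm38.p6), read 5′ to 3′ on the gene's strand, with capitals marking matches on either strand. The motifs searched were an AP-1 site (TGANTCA), a CRE-like site (TGACNTCA), a CRE core (TGACG, which can lie inside the CRE-like site), an EGR site (GCGNGGGCG), an IRF site (GAAANNGAA), a TATA box (TATAAA), the CArG box bound by SRF and the NF-kappaB site. Fos lies at chr12:85473640-85473889 (+), Fosl2 at chr5:32136222-32136471 (+), Jun at chr4:95052223-95052472 (-), Junb at chr8:84978749-84978998 (-) and Egr2, at 1 of its 5 RefSeq starts (the lowest of 3 windows tied for the most matches), at chr10:67537619-67537868 (+).
Fos: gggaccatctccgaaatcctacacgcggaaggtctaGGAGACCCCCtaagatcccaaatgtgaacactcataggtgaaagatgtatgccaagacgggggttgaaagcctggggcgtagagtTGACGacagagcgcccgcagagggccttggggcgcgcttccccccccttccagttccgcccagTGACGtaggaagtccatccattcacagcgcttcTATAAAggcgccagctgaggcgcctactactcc
Fosl2: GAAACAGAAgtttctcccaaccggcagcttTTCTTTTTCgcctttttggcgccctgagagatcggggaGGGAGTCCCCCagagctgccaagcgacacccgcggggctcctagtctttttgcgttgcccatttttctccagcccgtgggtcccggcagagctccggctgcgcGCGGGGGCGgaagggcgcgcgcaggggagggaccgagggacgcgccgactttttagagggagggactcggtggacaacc
Jun: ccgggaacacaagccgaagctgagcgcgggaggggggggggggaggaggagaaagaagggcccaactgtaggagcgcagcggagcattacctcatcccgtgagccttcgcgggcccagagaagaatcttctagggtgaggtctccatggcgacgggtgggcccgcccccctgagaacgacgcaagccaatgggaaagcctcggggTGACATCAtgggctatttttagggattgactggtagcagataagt
Junb: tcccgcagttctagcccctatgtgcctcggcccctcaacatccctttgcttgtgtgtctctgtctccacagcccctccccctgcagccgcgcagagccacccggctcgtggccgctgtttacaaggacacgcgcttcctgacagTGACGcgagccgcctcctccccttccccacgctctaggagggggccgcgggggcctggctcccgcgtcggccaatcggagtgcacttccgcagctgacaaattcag
Egr2: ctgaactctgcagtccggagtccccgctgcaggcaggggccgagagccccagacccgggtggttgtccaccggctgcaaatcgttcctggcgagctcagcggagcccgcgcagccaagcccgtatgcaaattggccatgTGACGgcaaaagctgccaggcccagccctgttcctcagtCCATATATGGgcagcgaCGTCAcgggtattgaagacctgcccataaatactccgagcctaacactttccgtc

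The table of promoters matched 7 of the 10 members, Fos, Fosb, Fosl2, Jun, Junb, Jund and Egr2, in 11 windows. Counts of members are of genes with a match in any window, while the shares are of windows, and Egr2 had several overlapping windows. The CRE core, the core of the sequence bound by CREB and ATF factors, was in 6 of the 11 member windows, against 17.8% of all 32851 windows. Those windows belonged to 4 of the 7 members, Fos, Fosb, Junb and Egr2. In Fos, copies began at -129 and -66 from the start, ahead of a TATA box, which 12.4% of all windows hold. Jun alone held the CRE-like site, which began at -45 from its start and which 7.49% of all windows hold. Among the 7 members with a window, a CArG box was in windows of Egr2 alone, and it was in 1.47% of all windows. An EGR site was in the windows of Fosb and Fosl2 (4.7% of all windows) and an NF-kappaB site in those of Fos, Fosb and Fosl2 (3.9%). An IRF site was in the windows of Fosl2, Jund and Egr2 (7.13%), for Egr2 in a window other than the one printed. No member window held TGANTCA (6.75%), the only form searched as an AP-1 site. The CRE-like site of Jun was not counted as one. These matches describe letters in a short window and are not evidence of binding. Bases further upstream were not searched, and Fosl1, Egr1 and Egr3 had no window. The lack of a match therefore does not mean that a gene lacks the site.

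**Figure D1:**
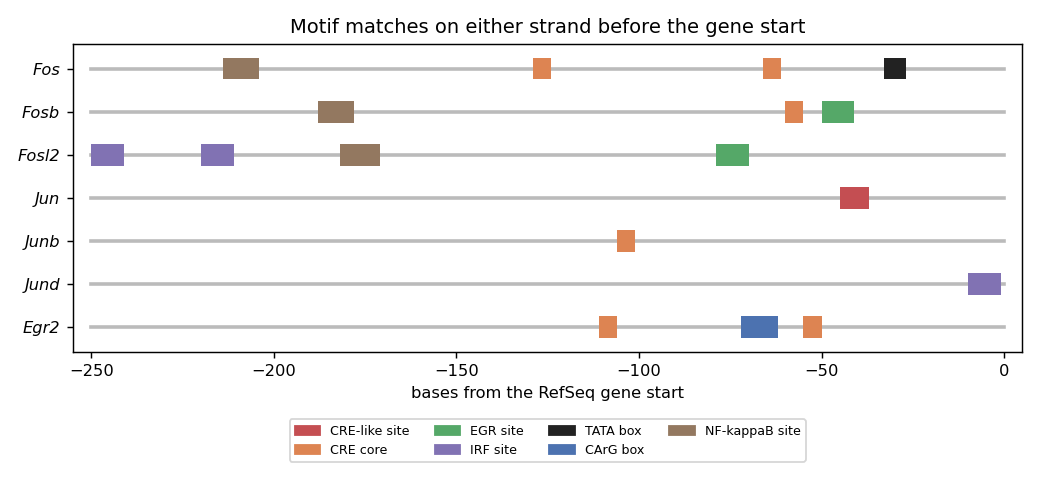
Motif matches in the 250 bases before the RefSeq start of 7 members; the horizontal axis is the distance in bases from the start and each coloured block is a match on either strand. Fos, Fosb, Junb and Egr2 carry the CRE core, Jun the CRE-like site and Egr2 the CArG box. For Egr2, where 3 windows tied for the most matches, the one with the lowest start is drawn.

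The comparison asked whether RNA of these genes differed between AT90ES and mock cells after 6 hours. All 9 measured members had a higher mean log2 level on the AT90ES arrays, by 0.14 to 0.81, and none passed limma's test across all genes. The median log2 fold change of the 9 was 0.51, against -0.02 over all 22180 genes, of which 45.4% were above 0. Adjusted p-values from limma, with the Benjamini-Hochberg method over all genes, gave 0 members higher and 0 lower at a threshold of 0.05, where 0.415% of all genes were higher and 0% lower. At an unadjusted p under 0.05, 7 of the 9 were higher (4.5% of all genes) and 0 lower (4.59%). In 8 of the 9 both AT90ES arrays lay above both mock arrays, as in 17.7% of all genes, and in 0 both lay below, as in 22.1%. The smallest change of any gene that passed was 0.97 on the log2 scale, so changes of the members' size lay under what this fit called. An exact permutation test of 2 against 2 arrays cannot give a two-sided p below 0.333. The members were put forward with results of these arrays known, so their shared direction is a description.

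**Figure D2:**
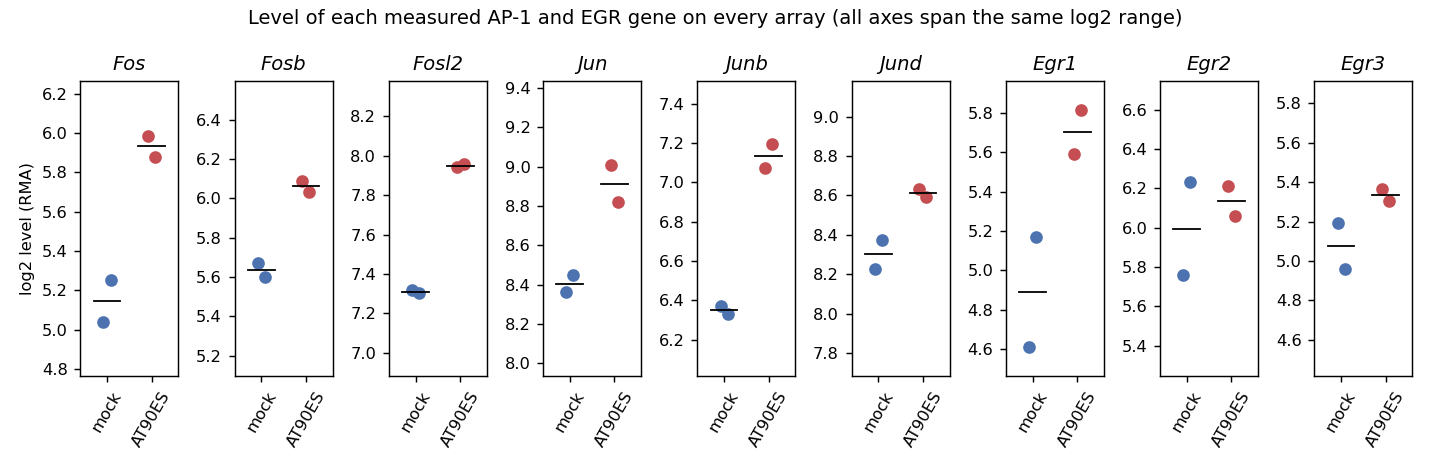
Deposited log2 level of each of the 9 measured members on every array, with mock arrays in blue, AT90ES arrays in red and group means as black lines; each vertical axis spans the same log2 range, so heights can be compared as differences but not as levels between genes. The groups are apart in 8 genes and overlap in Egr2.

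In the FOS family all 3 measured genes stood higher, by a median of 0.64. Fos, the founding member and a textbook immediate early gene, had log2 levels of 5.04 and 5.25 in mock and 5.99 and 5.88 in AT90ES cells. Both AT90ES arrays were above both mock arrays, and mock array 1 read less than 5.07, a background level that 95% of olfactory receptor genes, silent in most cells, did not exceed on that array. The log2 fold change of Fos was 0.79 ± 0.13 (SE), a 1.72-fold difference, with adjusted p = 0.16. Without that array the log2 fold change of Fos was 0.68.

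Fosl2, which encodes FRA2, a FOS protein without a strong activation domain, had the closest replicates of the group. Its log2 levels were 7.32 and 7.30 in mock and 7.95 and 7.96 in AT90ES cells. The groups were apart by far more than the replicates, with SDs of 0.0091 and 0.0079. The log2 fold change of Fosl2 was 0.64 ± 0.11 (SE), or 1.56-fold, with adjusted p = 0.177. Its standard error is set mostly by the spread that limma shares across genes, since 2 arrays a group say little about a single gene's own spread.

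Fosb, whose product resembles FOS and also occurs as a long-lived short form, stood at 5.67 and 5.60 in mock and 6.09 and 6.03 in AT90ES cells. The groups did not overlap, and the log2 fold change of Fosb was 0.43 ± 0.12 (SE), with adjusted p = 0.392. Fosl1, which encodes FRA1, the FOS protein most associated with invasive tumour cells, could not be measured alone. The probe shared by Ccdc85b and Fosl1 read 5.93 and 5.35 in mock and 5.01 and 5.64 in AT90ES cells. The groups overlapped and the arrays of each group lay far apart, with a log2 fold change of -0.31 ± 0.30 (SE) and adjusted p = 0.882 with every probe tested separately. Which of its genes that probe reports is not known.

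All 3 JUN genes stood higher, by a median of 0.51. Junb, whose protein pairs with FOS proteins and often restrains JUN, had the smallest p of the members. Its log2 levels were 6.37 and 6.33 in mock and 7.07 and 7.20 in AT90ES cells. The groups were well apart, with a log2 fold change of 0.78 ± 0.12 (SE), or 1.72-fold, and adjusted p = 0.119.

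Jun, the target of the JUN N-terminal kinases and an activator of its own promoter, had log2 levels of 8.36 and 8.45 in mock and 9.01 and 8.82 in AT90ES cells. The AT90ES arrays were both higher, with a log2 fold change of 0.51 ± 0.13 (SE), or 1.42-fold, and adjusted p = 0.369. Jund, the JUN protein that is present at rest and changes least with stimulation in most cells, stood at 8.23 and 8.37 in mock and 8.63 and 8.59 in AT90ES cells. The groups did not overlap, and the log2 fold change of Jund was 0.31 ± 0.12 (SE), with adjusted p = 0.539. A second, dimmer Jund probe read 6.44 and 6.46 in mock and 6.45 and 7.02 in AT90ES cells. On that probe the groups overlapped and only AT90ES array 2 was high, so the 2 Jund probes differ in this respect.

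The EGR genes also stood higher, by a median of 0.26, and Egr1 and Egr2 had the widest spread between arrays of the members. Egr1, an early growth response gene induced through SRF and ETS factors, read 4.61 and 5.17 in mock and 5.59 and 5.81 in AT90ES cells. The groups did not overlap although the mock SD was 0.39, and mock array 1 was under the olfactory receptor percentile. The log2 fold change of Egr1, 0.81 ± 0.21 (SE), was the largest of the group and had the largest standard error, with adjusted p = 0.375. Without mock replicate 1 it was 0.53 and without mock replicate 2 it was 1.09.

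Egr2, known for its roles in nerve myelination and T cell tolerance, read 5.76 and 6.23 in mock and 6.21 and 6.06 in AT90ES cells. It was the single member whose groups overlapped, and its log2 fold change was 0.14 ± 0.19 (SE), with a 95% confidence interval of -0.32 to 0.60 and adjusted p = 0.868. Without mock replicate 1 the value of Egr2 changed sign, to -0.10. Egr3, a close relative of EGR2, read 5.19 and 4.96 in mock and 5.37 and 5.31 in AT90ES cells. Its groups were apart, with a log2 fold change of 0.26 ± 0.13 (SE) and adjusted p = 0.632. Without mock replicate 1 the value of Egr3 was 0.37 and without mock replicate 2 it was 0.15. A difference in response between the members was not tested, and the intervals of Egr2 and Junb, -0.32 to 0.60 and 0.49 to 1.08, overlapped.

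**Figure D3:**
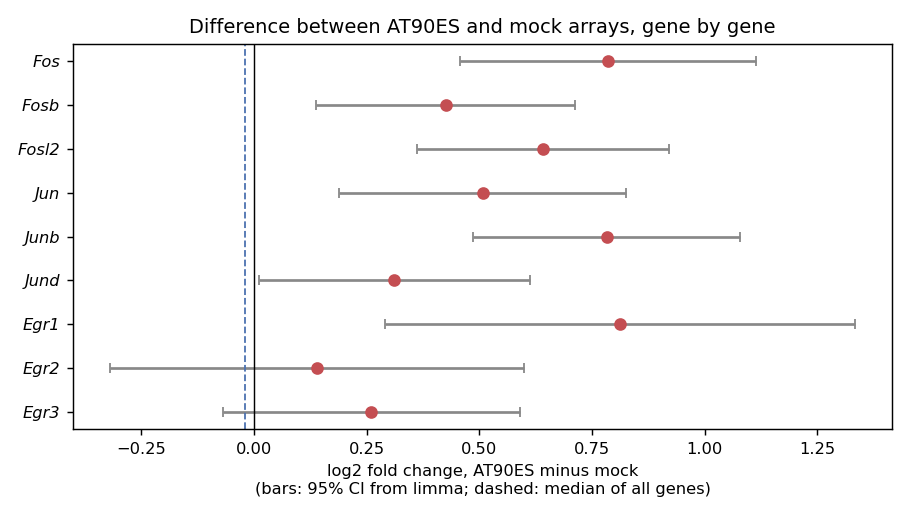
Log2 fold change of each measured member, AT90ES minus mock, with its 95% confidence interval from limma; the dashed line is the median of all genes at -0.02. The intervals of 7 members lie above 0 before any adjustment for the number of genes, and those of Egr2 and Egr3 include 0.

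The number of members called differed between fits. With an intensity trend in the spread, 4 members passed as higher, against 1.94% of all genes: Fosl2 (adjusted p = 0.00413), Junb (0.00465), Jun (0.00841) and Fos (0.0254). With dim genes left out, which cut the genes tested to 12998 and also refits the shared spread, 2 passed, against 1.27% of those genes, Junb (adjusted p = 0.0344) and Fosl2 (0.049). In the 4 fits that left out an array 0 members passed.

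Other immediate early genes, a list of 30 stress and growth factor targets, held 4 of the called genes. The 4 rose, 0 fell and 26 did not pass; the median log2 fold change was 0.16, with 21 genes above 0 and 9 below, and at an unadjusted p under 0.05 in limma 9 were higher and 4 lower. Btg2, an antiproliferative gene that p53 also induces, rose from 5.87 and 5.81 to 8.34 and 8.47, a log2 fold change of 2.56 ± 0.12 (SE) with adjusted p = 0.00191. Plk2, a stress-responsive kinase gene and known p53 target, rose by 2.55 ± 0.16 (adjusted p = 0.00547). Atf3, a stress factor that can pair with JUN, rose by 1.48 ± 0.12 (adjusted p = 0.0124). Zfp36, which encodes an mRNA decay factor, rose by 1.11 ± 0.11 (adjusted p = 0.0299). Without each array in turn, where the lone array is taken to vary like the other group, Atf3 (1.45 to 1.51, adjusted p = 0.0521 to 0.118) and Zfp36 (1.09 to 1.12, adjusted p = 0.132 to 0.242) kept their size and did not pass. Zfp36 also missed with a replicate block (adjusted p = 0.0503).

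Other early genes did not pass, and those given next were named after their values were seen. Ier2 had a log2 fold change of -0.03 ± 0.16, Maff, a small MAF gene, -0.01 ± 0.14, and Nr4a1, an orphan nuclear receptor gene, 0.15 ± 0.13 (SE). Ier3 stood at 0.95 ± 0.23 (adjusted p = 0.339). Csrnp1 stood at 0.66 ± 0.17, Rhob at 0.53 ± 0.13, Plk3 at 0.50 ± 0.13 and Klf4 at 0.42 ± 0.14 (adjusted p = 0.351 to 0.464). In each of these and in Ier3 both AT90ES arrays lay above both mock arrays. Myc, the growth regulator, stood at -0.45 ± 0.12, with log2 levels of 10.04 and 9.99 in mock and 9.48 and 9.64 in AT90ES cells (adjusted p = 0.393). Both AT90ES arrays were below both mock arrays for Myc, the opposite of the FOS and JUN genes. The same held for 5 of the 30 genes on this list and for 22.1% of all genes. In 16 of the 30 both AT90ES arrays lay above both mock arrays, against 17.7% of all genes.

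**Figure D4:**
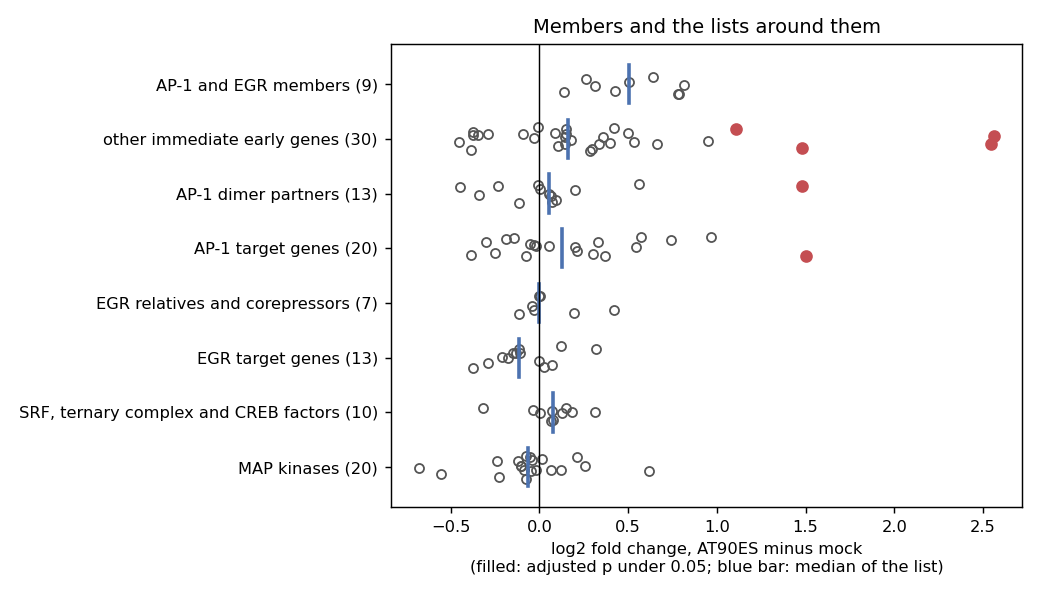
Log2 fold change, AT90ES minus mock, of each member and of each gene on 7 lists of related genes; filled points passed limma's test, open points did not, and blue bars are list medians. The 9 members lie to the right of 0, with a median of 0.51, while the medians of the other lists lie between -0.11 and 0.16. The passing genes are Btg2, Plk2, Atf3 and Zfp36 among immediate early genes, Atf3 again among the AP-1 partners and Hmox1 among AP-1 targets.

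Among 13 measured genes of bZIP proteins that can pair with FOS or JUN, 1 rose, Atf3, 0 fell and 12 did not pass (2 higher and 0 lower at an unadjusted p under 0.05), with a median of 0.05. Jdp2, which encodes a JUN dimerization protein that represses AP-1, stood at 0.56 ± 0.13 (adjusted p = 0.337) and Batf3, a dendritic cell factor gene, at -0.45 ± 0.23, a difference between readings under the olfactory receptor percentile on all 4 arrays; both were named after their values were seen. Of 20 AP-1 target genes 1 was called higher and 0 lower, with 6 higher and 2 lower at an unadjusted p under 0.05. The gene that rose was Hmox1, which encodes the heme-degrading stress enzyme, from 8.24 and 8.56 to 10.01 and 9.80, a log2 fold change of 1.50 ± 0.16 (adjusted p = 0.0334). Without each array in turn Hmox1 stood at 1.34 to 1.66 and did not pass (adjusted p = 0.0521 to 0.228), with the same assumption on the lone array. The list median was 0.13, with 11 genes above 0 and 9 below; 7 of the 20 were under the olfactory receptor percentile on all arrays and 12 above it on all. In 10 of the 20 both AT90ES arrays lay above both mock arrays, against 17.7% of all genes. In 3 both lay below, against 22.1% of all genes. Lif, an interleukin 6 family cytokine gene, stood at 0.97 ± 0.16 and Ccnd1, the cyclin D1 gene, at -0.30 ± 0.11. Both were not past the threshold and were named after their values were seen.

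EGR relatives and targets did not pass. Of 7 genes on the list of EGR relatives and corepressors, 0 rose and 0 fell, with 1 higher and 0 lower at an unadjusted p under 0.05. Nab1 and Nab2, whose products bind EGR proteins and repress their activity, had log2 fold changes of 0.00 and -0.11. Of 13 EGR target genes, 0 rose and 0 fell, with 0 higher and 1 lower at an unadjusted p under 0.05, and the median was -0.11. Id2 stood at -0.21 ± 0.12 and Id3 at -0.13 ± 0.12, both genes of inhibitors of helix-loop-helix factors.

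The upstream machinery did not pass either. Of 10 measured SRF, ternary complex and CREB factors, 0 rose and 0 fell, with 1 higher and 0 lower at an unadjusted p under 0.05, and the median was 0.08. Ep300, a histone acetyltransferase gene, stood at 0.31 ± 0.11 and Crebbp, its relative, at 0.13 ± 0.12. Srf, named after its value was seen, stood at -0.04. Of 20 measured MAP kinase genes, 0 rose and 0 fell, with 1 higher and 2 lower at an unadjusted p under 0.05, and the median was -0.06. Map2k2 and Map2k3, kinase genes one step above the MAP kinases, stood at -0.02 and -0.05. Kinases act by phosphorylation, and RNA levels do not measure their activity.

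The genes most like the members with the largest and smallest change were found by distance between the 4 log2 levels, each less its gene's mean. Nearest to Egr1 over the 4 arrays were Olfr299 (distance 0.0918), Etv5 (0.105) and Mir505 (0.125). Etv5, an ETS factor gene induced by ERK signalling, read 6.88 and 7.30 in mock and 7.78 and 7.96 in AT90ES cells, and mock array 1 was the lowest, as for Egr1. Its log2 fold change of 0.78 ± 0.18 (SE) had an adjusted p of 0.31. Olfr299 read 2.16 to 3.33, a range of levels under the olfactory receptor percentile. Nearest to Egr2 were Zfp407 (0.0311), Tcaim (0.0404) and Ibsp (0.0415). Likeness over 4 arrays says nothing on function.

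The cells and arrays were checked against their labels. Of 10 pigment cell markers, 9 lay above the olfactory receptor percentile on all 4 arrays, with Dct and Tyrp1 at the highest mean levels. The exception, Oca2, named after its values were seen, was under it on each array. In limma 0 of the 10 passed, with 0 higher and 1 lower at an unadjusted p under 0.05, Mitf at -0.34 ± 0.11, also named after its value was seen. Of all 22180 genes, 11704 were above the olfactory receptor percentile on all 4 arrays. Myeloid markers were above it on all arrays for 4 of 10 genes, lymphocyte markers for 1 of 9 and fibroblast and endothelial markers for 4 of 10. In limma 0 of these 29 passed, with 0 higher and 3 lower at an unadjusted p under 0.05. The mean log2 level of the myeloid list was 5.13 and 5.09 on the mock and 4.91 and 5.03 on the AT90ES arrays. That of the lymphocyte list was 4.49 and 4.38 against 4.33 and 4.35. On all 4 arrays 4 of the 10 myeloid and 8 of the 9 lymphocyte genes were under the olfactory receptor percentile, which limits these means. A share of other cells was not tested. Across genes, which are not independent replicates, Pearson's r was 0.992 and 0.993 within groups and 0.987 to 0.989 between them. The 9 reference genes had a median log2 fold change of 0.05, and centring the arrays on them left the members' median at 0.47.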

How the data were processed

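Log2 levels of 41345 probes on 4 arrays were used as the authors deposited them; the submitters' processing notes name RMA, which corrects background, equalises array distributions and summarises probe sets. Neither its software nor its settings are given in the sources used here, and the log2 scale was read from the values. Such scaling makes each change relative to the other genes. Per the labels' protocols 300 ng of RNA went into each array, and the number of arrays limits the precision. Of the probes, 23521 carried 1 symbol in the platform annotation, 1814 several and 16010 none; only the first kind named a gene, by its brightest probe, giving 22180 genes. List genes were matched by symbol, 4 of them through RefSeq synonyms.

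The groups were compared with limma 3.58.1 (R 4.3.3; lmFit, eBayes), with no covariate or filter, 2 residual and 3.7 prior degrees of freedom, and two-sided p-values adjusted over all genes. The steps were tested on simulated data. Motifs were searched in RefSeq promoters (GRCm38.p6). Named genes were all members and, in each list, up to 4 that passed or the 2 with the highest mean level, plus the 3 profiles nearest to the highest and lowest member; exceptions are said. Members and lists were chosen with earlier results of these data known. The alternatives were the spread model, a filter on dim genes, scaling, probe choice, leaving out an array and pairing.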

Additional observations from a re-analysis of the deposited data

How the results depend on the processing

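The count of members past the threshold, 0, was 4 higher with an intensity trend in the spread and 2 with dim genes left out, and 0 under the other scalings, probe choices and left-out arrays; 0 members were lower in any fit. With the trend, the numbers higher were 2 for AP-1 partners, 7 for other immediate early genes, 1 for SRF and CREB factors, 1 for MAP kinases and 4 for AP-1 targets, and the numbers lower 1 for other immediate early genes, 2 for MAP kinases, 1 for AP-1 targets and 1 for pigment cell markers. Of all 22180 genes, the trend fit called 431 higher and 162 lower. With every probe tested separately, 0 AP-1 partners, 1 other immediate early gene and 0 AP-1 targets were higher. Without each array in turn, the range was 0 to 0 for AP-1 partners and AP-1 targets and 2 to 2 for other immediate early genes.

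Deviations of same-numbered arrays from their group means correlated at -0.222 across genes. With 2 arrays a group both pairs must give the same value, so it cannot settle whether the arrays were paired. The fit with a replicate block called 85 genes and 0 members, and the crossed pairing, chosen after the data were seen, 59 genes and 0 members. Of values that passed in either fit, 0 changed sign. In all, 25 of 644 values changed sign, none above 0.141 in size. They covered 50 genes, those the naming rule picked and most of those picked with values known. Csrnp1, Rhob, Plk3 and Klf4 were not among the 50. Of the covered genes picked with values known, the trend called Ier3, Lif and Jdp2 higher and Myc, Ccnd1 and Mitf lower. No detection calls or array-level depth were used, and levels near background limit Fos, Egr1 and Egr3.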

Other observations

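Ordered by log2 fold change over the 22180 genes, with 1 as the highest, the members stood at rank 175 (Egr1), 188 (Fos), 191 (Junb), 285 (Fosl2), 483 (Jun), 731 (Fosb), 1412 (Jund), 1963 (Egr3) and 4404 (Egr2). Ordered by p, the first 5 were Junb at 137, Fos at 171, Fosl2 at 192, Jun at 498 and Egr1 at 540. The order by size rests in part on mock array 1, where Egr1 and Fos read under the olfactory receptor percentile: without it the log2 fold changes were 0.80 for Junb, 0.68 for Fos, 0.65 for Fosl2 and 0.53 for Egr1.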
